A study of Caenorhabditis elegans with 12 samples.

Results

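Small RNAs (sRNAs) antisense to 10 genes that hold the C. elegans germline stem cells or send their daughters into meiosis were followed in input sRNAs and in sRNAs bound to the Argonaute WAGO-4. The genes, glp-1, gld-1, gld-2, gld-3, fbf-1, fbf-2, nos-1, nos-2, nos-3 and puf-8, were chosen by name, and their rows antisense to protein-coding sequence were taken, 10 of 19691 such rows in the count matrix. Of the 4085 antisense protein-coding rows in the 3×FG table of WAGO-4 targets, 7 were members. In the WT table, 8 of 4720 were members, and 7 members stood in both tables.

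The worms were whole young adults grown at 20 °C. In the 3×FG strain (SS142 in the sample labels), phenylalanines of the FG repeats of the Vasa-type helicases GLH-1 and GLH-4 were changed to alanine, with the alleles glh-1(allele50[glh-1F>A]) I and glh-4(allele16[glh-4F>A]) I, and the FG repeats of GLH-2 were deleted, with glh-2(allele49[glh-2 delFG]) I. The WT strain, YY1325, carried none of these edits, and both strains carried the wago-4 allele gg620 on chromosome II, which joins 3xflag and gfp to the gene, so that WAGO-4 was tagged in 3×FG and WT alike. Each genotype was 1 strain, with 3 WAGO-4 immunoprecipitates (IPs) and the 3 inputs of the same lysates. The study describes its replicates as biological.

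Germline stem cells of the worm sit at the distal end of the gonad, where somatic cells present a Notch ligand to the receptor GLP-1 on germ cells and keep them dividing. The PUF proteins FBF-1 and FBF-2 bind mRNAs and repress genes of meiotic entry, while GLD-1 with NOS-3 and the poly(A) polymerase GLD-2 with GLD-3 form branches that send cells into meiosis. WAGO-4 is a germline Argonaute of the Z granules that is loaded with 22G-RNAs, short RNAs that RNA-dependent polymerases copy from target mRNAs and that are therefore antisense to them.

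Input values below are antisense reads of all sRNA classes, scaled to the reads of the library (RPM). IP/input ratios and tests of IP over input use the 22G-RNA RPM of the inputs, so the ratios do not follow from the printed input values. IP values are RPM of the class of 22G-RNAs alone. They are given for the targets of a genotype, which had to reach 5 RPM in every IP and a ratio of IP to input of 2 in every pair. A feature was called where the Benjamini-Hochberg adjusted p was under 0.01 and the log2 fold change lay beyond -1 or 1. The inputs held 78826261, 45860107 and 11890545 reads in 3×FG and 2208475, 5200665 and 20006273 reads in WT, and the IP values came without counts, so that the depth of the IPs is unknown here. WT inputs 1 and 2 were labelled batch A and all other libraries batch B. rRNA took 3.18% and 4.95% of the reads in WT inputs 1 and 2, against 15.2% to 20.1% in the other 4 inputs.

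The marker lists and the edited genes gave a short account of the inputs. Summed antisense RPM of 11 germline genes ran from 562 to 811 in 3×FG and from 529 to 587 in WT, that of 9 sperm genes from 78.5 to 101 in 3×FG and from 54.9 to 76.5 in WT, and that of 12 genes of soma from 52.1 to 62.8 in 3×FG and from 34.4 to 57.1 in WT. None of these lists had a member at 0 in all 6 inputs. Of the 11, 9 and 6 members that could be tested, none was called by edgeR. An unadjusted edgeR p under 0.05 was found for 3, 3 and 4 of them. DESeq2 called 0, 2 and 2, beside 2435 of the 22301 features tested. The edited gene glh-1 gave the largest part of the germline sum. The 11 germline genes had log2 fold changes from -0.80 (puf-5) to 0.79 (deps-1), with a median of -0.16. The soma genes did not move together either. The yolk genes vit-2, vit-5 and vit-6, which carry most of that sum, had log2 fold changes of 0.36, 0.52 and 0.73, whereas the muscle myosin gene unc-54 had -1.81 and the neuronal genes unc-119 and rab-3 had -2.13 and -1.11 (edgeR adjusted p from 0.025 to 0.6), with a median of -0.38 over the 6 tested. The miRNA miR-35-3p of germline and embryo had 5805 to 6811 RPM in 3×FG, against 5417, 7336 and 20411 RPM in WT, so that WT input 3 stood apart. Antisense reads do not show the edits themselves. They were called higher in 3×FG for glh-2 (log2 fold change 1.32, SE 0.17, edgeR adjusted p = 0.0059), a call lost without each 3×FG input and without WT input 1 or 2 (adjusted p from 0.010 to 0.047), whereas glh-4 had 1.03 (SE 0.24, edgeR adjusted p = 0.040) and glh-1 had -0.01 (SE 0.16, edgeR adjusted p = 0.97). The part of these differences in the results below was not tested.

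All members but gld-1 and fbf-1 had antisense sRNAs in all 6 inputs. Per kilobase of the longest transcript, fbf-2 had the highest level over the 6 inputs (41.8 RPM per kb on average), followed by puf-8 (23.5 RPM per kb), and the ranges of these neighbours overlapped. The range of puf-8 (16.4 to 34.1 RPM per kb) lay above that of nos-3 (8.79 to 15.4 RPM per kb). Below nos-3 came gld-2, nos-1, glp-1, gld-3, nos-2, gld-1 and fbf-1. From nos-3 down, each neighbour overlapped the next, so that the order of neighbours was not resolved. Some members further apart did not overlap. The range of nos-3 lay above those of glp-1 (6.38 to 8.73 RPM per kb) and nos-2 (3.90 to 7.43 RPM per kb). That of fbf-1 (0 to 0.141 RPM per kb) lay below those of all other members but gld-1. Among the 19691 antisense rows, fbf-2 stood at percentile 95.5 and puf-8 at percentile 92.6 of the level per kb, and the 6 members from nos-3 to nos-2 between percentiles 75.04 and 84.76. The share of the 22G class could be taken only for members that were targets of that genotype. In 43 such values with at least 20 reads, 87.5% to 100.0% of a member's antisense reads were of the 22G class, with a median of 91.3%. Over all antisense protein-coding targets with at least 20 reads, the median share per input was 90.1% to 92.6%.

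**Figure D1:**
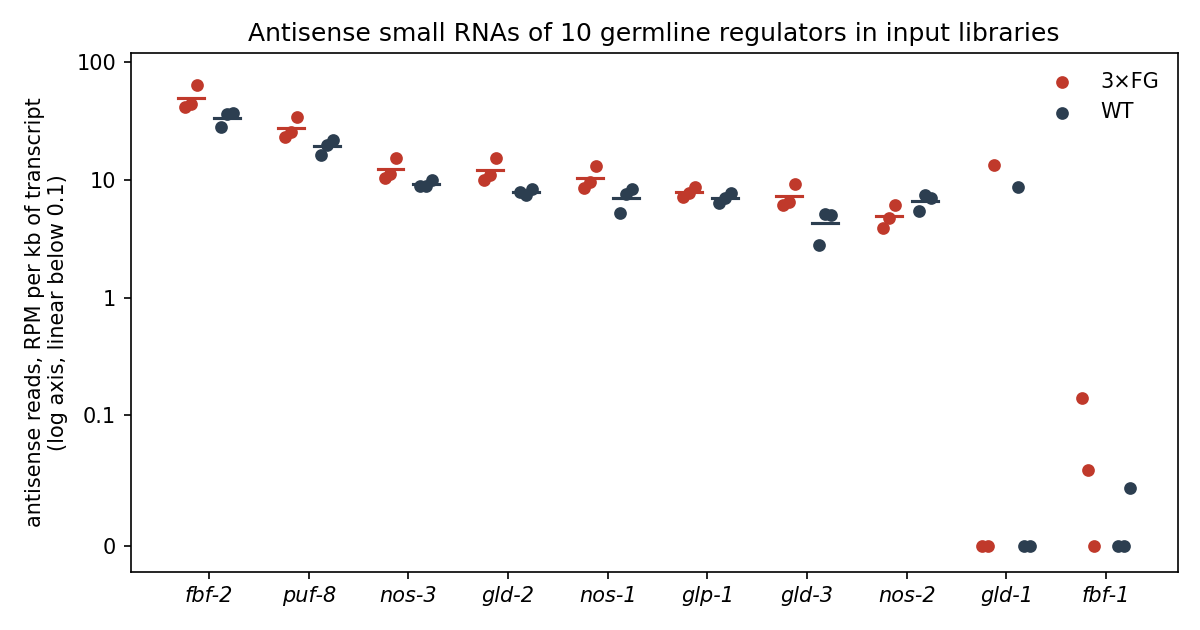
Antisense sRNAs of the 10 members in the input libraries, in RPM per kb of the longest transcript on an axis that is logarithmic above 0.1 and linear below. Points are the 3 libraries of 3×FG (red, left) and WT (dark, right), and bars are means, left out for gld-1 and fbf-1. The genes are ordered by their mean over the 6 inputs, and gld-1 shows 4 libraries at 0 beside 1 of each genotype near 10.

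Across the inputs, none of the 8 members that could be tested was called in either direction by edgeR, none had an unadjusted p under 0.05, and DESeq2 called 0. Of 22301 features tested, 0.839% were called higher and 2.04% lower in 3×FG (187 and 454, or 249 and 385 with library size scaling). Single libraries set these shares, with 3960 called higher and 3078 lower without WT input 3, and 8 higher and 1 lower without 3×FG input 3. The median log2 fold change of the 8 members was 0.31, beside 0.18 over all features tested. For 6 members (gld-2, gld-3, fbf-2, nos-1, nos-3 and puf-8), every 3×FG input lay above every WT input, which was so for 24.0% of all features tested and for 34.7% of the 10863 antisense protein-coding rows among them. Fitted changes of these 6 ran from 0.20 to 0.51, with edgeR adjusted p from 0.22 to 0.57. In each of these 6, the highest value was that of 3×FG input 3.

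The clearest difference among the members was in the Notch receptor gene glp-1 (WBGene00001609, chromosome III, 9092241 to 9099698, plus strand, WBcel235). The WAGO-4 IPs held 124, 137 and 132 RPM of glp-1 22G-RNAs in 3×FG, against 322, 305 and 274 RPM in WT. The 3×FG IPs were all below the WT IPs by a wide margin. The means were 131 ± 6.62 RPM in 3×FG and 300.4 ± 24.6 RPM in WT (SD, n = 3 each), so that the 3×FG mean was 43.6% of that in WT. The glp-1 level in the IPs fell by 1.19 on the log2(RPM + 1) scale (SE 0.09, limma adjusted p = 8.1e-06). In bulk worms, fewer cells of a type and less RNA per cell cannot be told apart.

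The inputs gave no call for glp-1. They held 31.1, 33.5 and 37.8 RPM in 3×FG, against 27.6, 30.6 and 33.2 RPM in WT. These ranges overlapped, and the fitted input change was -0.05 (SE 0.15, edgeR adjusted p = 0.89). With the input of the same lysate as denominator, the IP/input ratio of glp-1 was 4.17, 4.36 and 3.72 in 3×FG, against 13.2, 10.7 and 8.62 in WT. All 3×FG pairs lay below all WT pairs, and IP over input changed by -1.38 (SE 0.24, limma adjusted p = 5.9e-05, interaction over 12 libraries). With WT input 3, of batch B, as the only WT input, the change was -1.21 (limma adjusted p = 0.0019).

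These values are set against a general shift. Over the 4080 features in both tables, the median log2 fold change was -0.30 in the IPs, with 19.7% called lower and 0.613% called higher, and -0.67 in IP over input, with 24.1% called lower and 0.245% called higher. TMM scaling brought these medians to -0.01 and -0.08. On that scale glp-1 had -0.89 in the IPs (limma adjusted p = 1.4e-05), and its IP over input had -0.74 (limma adjusted p = 0.0018), short of the limit of 1 in both. Relative to the median of all features, glp-1 stood at -0.89 in the IPs on the RPM scale and at -0.88 after TMM scaling. Among the targets of the same genotype, its IP/input ratio lay at percentiles 19.8 to 34.8 in the 3×FG pairs and at percentiles 66.2 to 71.9 in the WT pairs. Called features were 803 lower and 25 higher in the IPs (545 and 88 with TMM scaling), and 983 lower and 10 higher in IP over input (122 and 47 with TMM scaling). On the RPM scale, the 7 members in both tables had a median of 0.02 in the IPs and -0.56 in IP over input, above the medians of all features.

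**Figure D2:**
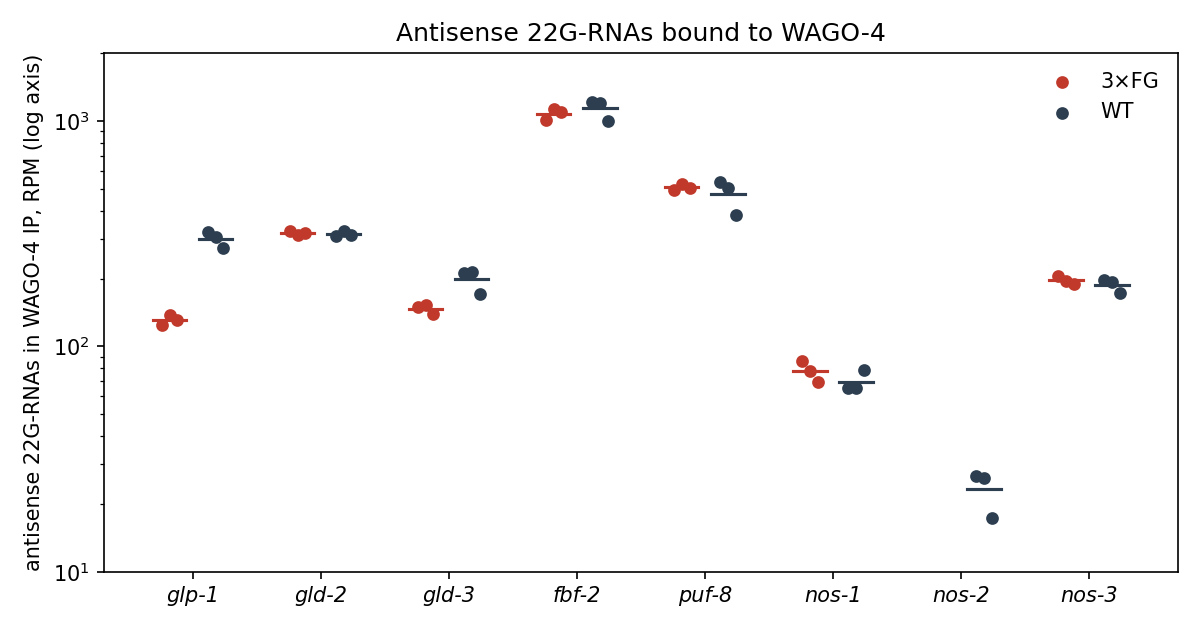
RPM of antisense 22G-RNAs in the WAGO-4 IPs (log axis) of the 8 members with IP values, with the 3 libraries of 3×FG (red, left) and of WT (dark, right) as points and their means as bars. The 3×FG points of glp-1 sit between 124 and 137 RPM and its WT points between 274 and 322 RPM, while the genotypes overlap in gld-2, fbf-2, puf-8, nos-1 and nos-3. nos-2 has WT values only, and levels of different genes are not corrected for length.

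The glp-1 sense strand gave a check of where the reads lay. Sense reads made up 31.5%, 21.4% and 23.8% of glp-1 reads in the 3×FG inputs, against 4.69%, 3.05% and 36.3% in the WT inputs. Both low values were those of batch A. Over the 7 members with a sense row and steady antisense reads, the sense share was 0% to 8.33% in WT inputs 1 and 2 and 2.06% to 39.3% in the other 4 inputs, and over all protein-coding rows it was 4.77% and 4.78% in WT inputs 1 and 2 and 9.73% to 13.9% in the others. The last 18 bases of glp-1 overlap exons of ZK507.1 on the other strand. Such exon overlaps cover 51 bases of nos-3 (Y53C12B.7), 46 of gld-2 (klu-2), 12 of nos-1 (gst-5) and 15 of fbf-1 (H12I13.6). The ncRNA genes ZC308.5 and ZC308.6 lie inside gld-2 on the other strand without touching its exons.

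gld-1 (WBGene00001595, chromosome I, 7695681 to 7698222, plus strand) encodes the KH-domain RNA-binding protein that represses translation in cells entering meiosis. Its antisense reads were present in some inputs and absent from others of the same genotype, with 0, 0 and 356 reads in 3×FG, against 43, 0 and 0 reads in WT. The 356 reads were 29.9 RPM in 3×FG input 3, and the 43 reads were 19.5 RPM in WT input 1. The deepest library, 3×FG input 1, had none, which allows at most 0.0381 RPM (3 counts of the total, counting error only), provided that the gene was counted alike in every library. Such a pattern was rare. Of 7281 antisense protein-coding rows with at least 5 RPM in an input, 58 (0.797%) were at 0 in at least 1 input and 12 (0.165%) in at least 4 inputs. The sense row of gld-1 held 0 to 2 reads in every input, although young adult germlines transcribe the gene. gld-1 stood in neither target table and did not pass the filter on low counts, so it was not tested. Whether the counting or the annotation behind the count matrix set these zeros was not tested either.

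nos-3 (WBGene00003785, chromosome II, 9746316 to 9750462, plus strand), a Nanos-family gene that acts in the GLD-1 branch, had 35.2, 38.3 and 52.5 RPM in the 3×FG inputs, against 30.3, 30.0 and 34.3 RPM in the WT inputs. The genotypes did not overlap, but the change of 0.20 (SE 0.18) had an edgeR adjusted p of 0.57. In the IPs it had 206, 196 and 189 RPM in 3×FG, against 196, 192 and 172 RPM in WT. These overlapped, with a change of 0.08 (SE 0.09, limma adjusted p = 0.48). With TMM scaling the IP change of nos-3 was 0.38 (limma adjusted p = 0.0026), short of the fold limit. Its IP/input ratio was 6.53, 5.68 and 3.97 in 3×FG, against 6.87, 7.04 and 5.61 in WT, again overlapping. The change of IP over input was -0.28 (SE 0.25, limma adjusted p = 0.33) on the RPM scale and turned to 0.34 with TMM scaling (limma adjusted p = 0.085).

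In the other branch, gld-2 (WBGene00001596, chromosome I, 6369748 to 6386194, plus strand) encodes the cytoplasmic poly(A) polymerase. Its 22G-RNAs in the IPs were 326, 310 and 318 RPM in 3×FG, against 307, 325 and 312 RPM in WT, and the groups overlapped closely. The change was 0.02 (SE 0.08, limma adjusted p = 0.87). With TMM scaling it was 0.32 (limma adjusted p = 0.0059), short of the fold limit. The inputs held 46.2, 51.0 and 71.5 RPM in 3×FG, against 36.7, 34.4 and 39.0 RPM in WT, without overlap. The fitted input change of 0.40 (SE 0.18) did not pass the test (edgeR adjusted p = 0.22). The IP/input ratio was 7.84, 6.76 and 4.93 in 3×FG, against 9.30, 10.4 and 8.89 in WT. All 3×FG pairs were lower, yet the change of -0.56 (SE 0.25) did not pass (limma adjusted p = 0.058) and turned to 0.07 with TMM scaling.

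gld-3 (WBGene00001597, chromosome II, 7132643 to 7137522, plus strand) encodes the Bicaudal-C family partner of GLD-2. Its IPs held 149.4, 152.7 and 139.5 RPM in 3×FG, against 211, 215 and 171 RPM in WT, with every 3×FG IP below every WT IP. The change of -0.43 (SE 0.11) had a limma adjusted p of 0.0074 but did not reach the fold limit, and with TMM scaling it was -0.13 (limma adjusted p = 0.20). In the inputs gld-3 had 21.7, 23.2 and 33.1 RPM in 3×FG, against 9.96, 18.46 and 17.99 RPM in WT, where the lowest value rested on 22 reads in WT input 1. The change in the inputs was 0.51 (SE 0.28, edgeR adjusted p = 0.32). The IP/input ratio was 7.52, 7.03 and 4.52 in 3×FG, against 21.2, 12.7 and 10.2 in WT, without overlap.

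The change of IP over input of gld-3 fell by 1.13 on the log2 scale (SE 0.28, limma adjusted p = 0.0021), so that gld-3 was called beside glp-1. The call rested on single libraries and on the scale. The change was -0.85 without WT pair 1 (limma adjusted p = 0.021), -0.91 without 3×FG pair 3 (limma adjusted p = 0.026) and -0.90 with WT input 3 as the only WT input (limma adjusted p = 0.024). With TMM scaling it was -0.52 (limma adjusted p = 0.036). Relative to the median of all features, gld-3 stood at -0.46 in IP over input. All 3×FG pairs lay below all WT pairs for glp-1, gld-3, gld-2 and fbf-2, 4 of the 7 members in both tables, beside 57.3% of all features, and in the IPs for glp-1 and gld-3, beside 51.7% of all features.

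**Figure D3:**
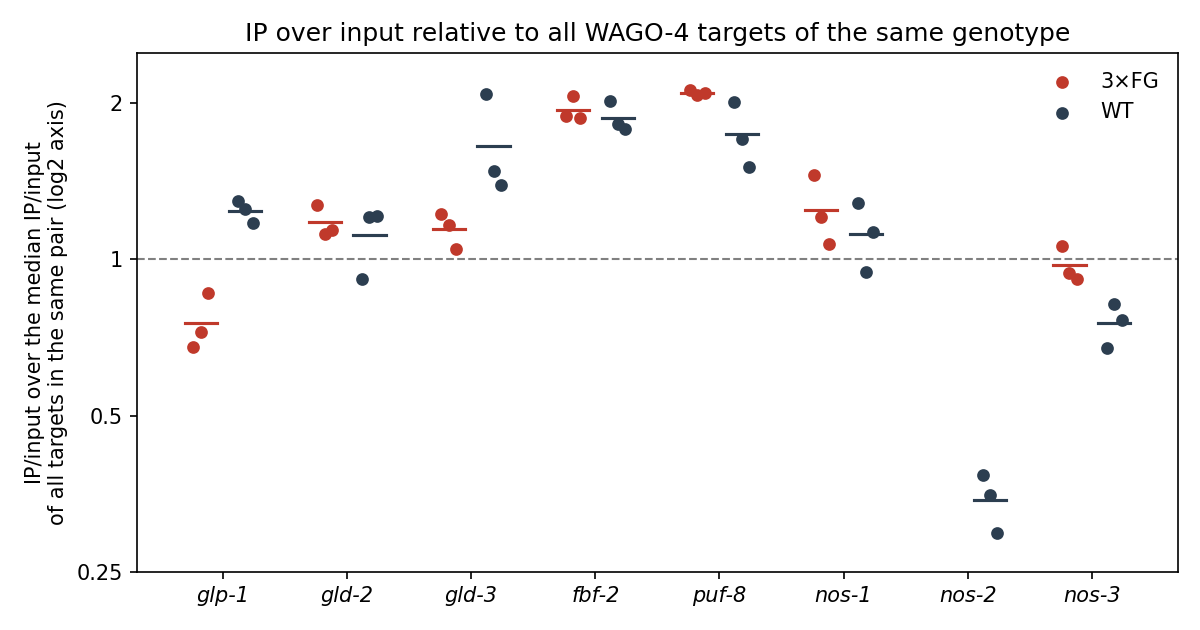
IP/input ratio of each member divided by the median ratio of all targets of that genotype in the same pair of libraries (log2 axis, dashed line at 1). Points are the 3 pairs of 3×FG (red, left) and WT (dark, right), and bars are means. glp-1 lies below the line in 3×FG (0.678, 0.723 and 0.860) and above it in WT (1.30, 1.25 and 1.18), fbf-2 and puf-8 lie above it in both genotypes, and nos-2 is below 0.4 in WT.

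The PUF genes fbf-1 and fbf-2 encode near-identical repressors with shared roles in the stem cells, and the files treat them very differently. fbf-2 (WBGene00001402, chromosome II, 6088863 to 6091480, minus strand) had 7511, 4599 and 1734 antisense reads in the 3×FG inputs, against at most 1702 in the WT inputs. fbf-1 (WBGene00001401, chromosome II, 6078263 to 6080843, minus strand) had 25, 6 and 0 reads in 3×FG, against 0, 0 and 2 in WT. Every library thus held far fewer reads for fbf-1, and most of the few reads on its locus, 8 to 50 per 3×FG input and 3 to 13 per WT input, were on the sense strand. fbf-1 stood in neither target table and was too low to be tested. How reads that match both genes were assigned is not given in the sources used here, so the division between the pair is uncertain, and values of fbf-2 may include reads of fbf-1.

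The WAGO-4-bound 22G-RNAs of fbf-2 in 3×FG lay within the range of WT. The IPs held 1013, 1126 and 1093 RPM in 3×FG, against 1215, 1194 and 1002 RPM in WT. The groups overlapped, with a change of -0.07 (SE 0.10, limma adjusted p = 0.53) that turned to 0.23 with TMM scaling (limma adjusted p = 0.011). The inputs held 95.3, 100.3 and 146 RPM in 3×FG, against 64.3, 83.1 and 85.1 RPM in WT, and did not overlap. The change there was 0.34 (SE 0.20, edgeR adjusted p = 0.36). The IP/input ratio was 11.6, 12.4 and 8.10 in 3×FG, against 20.5, 15.7 and 13.1 in WT, a change of -0.61 (SE 0.26, limma adjusted p = 0.050) near the median shift of all features. In both genotypes fbf-2 was among the most enriched targets, at percentiles 92.5 to 96.4 of the ratio in 3×FG and 92.3 to 94.7 in WT.

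puf-8 (WBGene00004244, chromosome II, 7296110 to 7298247, minus strand) encodes a PUF protein that controls germ cell proliferation and the sperm to oocyte decision. Its IPs held 496, 528 and 505 RPM in 3×FG, against 537, 504 and 383 RPM in WT. WT IP 3 was the lowest of the 6, and the groups overlapped. The change was 0.12 (SE 0.13, limma adjusted p = 0.44) and turned to -0.03 without WT IP 3. With TMM scaling it was 0.42 (limma adjusted p = 0.0041), short of the fold limit. The inputs held 42.2, 46.8 and 62.0 RPM in 3×FG, against 29.9, 36.3 and 39.4 RPM in WT, a change of 0.30 (SE 0.19, edgeR adjusted p = 0.39). Its IP/input ratio was 13.1, 12.5 and 9.05 in 3×FG, against 20.4, 14.6 and 11.1 in WT, and it was enriched much like fbf-2, at percentiles 95.6 to 96.5 in 3×FG and 84.2 to 93.2 in WT. The change of IP over input was -0.37 (SE 0.26, limma adjusted p = 0.22) on the RPM scale and 0.26 with TMM scaling (limma adjusted p = 0.14).

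nos-1 and nos-2 encode Nanos-family proteins that act in the primordial germ cells. nos-1 (WBGene00003783, chromosome II, 10951592 to 10953165, minus strand) had 86.3, 78.1 and 69.6 RPM in the 3×FG IPs, against 65.2, 65.6 and 78.7 RPM in the WT IPs. The groups overlapped, with a change of 0.16 (SE 0.12, limma adjusted p = 0.27). With TMM scaling the IP change of nos-1 was 0.46 (limma adjusted p = 0.022). Its inputs were low, at 10.36, 11.75 and 15.98 RPM in 3×FG, against 6.34, 9.23 and 10.3 RPM in WT, where WT input 1 rested on 14 reads. The change there was 0.33 (SE 0.28, edgeR adjusted p = 0.54). The IP/input ratio of 8.96, 7.27 and 4.62 in 3×FG overlapped that of 13.1, 8.12 and 8.28 in WT (-0.45, SE 0.29, limma adjusted p = 0.20).

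nos-2 (WBGene00003784, chromosome II, 7065618 to 7067051, plus strand) was the only member in the table of 1 genotype. It was a WT target, with 26.5, 26.0 and 17.4 RPM in the IPs and IP/input ratios of 3.90, 3.01 and 2.17, and the last lay close to the limit of 2 of the target rule. These ratios stood at percentiles 0.557 to 6.85 of all WT targets. It was not in the 3×FG table, so its 3×FG IP level was not analysed here, and its absence does not show how far it fell short. WT had more targets in general (4720 antisense protein-coding rows, against 4085 in 3×FG), so such an absence was not particular to nos-2. The inputs held 4.85, 5.87 and 7.65 RPM in 3×FG, against 6.79, 9.23 and 8.80 RPM in WT. The lowest WT value, from 15 reads, lay within the 3×FG range, and the change of -0.66 (SE 0.29) did not pass the test (edgeR adjusted p = 0.21). With antisense protein-coding rows only it was -0.78 (edgeR adjusted p = 0.0056), and with DESeq2 -0.74 (DESeq2 adjusted p = 0.027), both short of the fold limit. The whole of nos-2 lies inside him-14 on the other strand and shares 154 bases of exon with it, and whether the counting told the pair apart is not given in the sources used here.

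**Figure D4:**
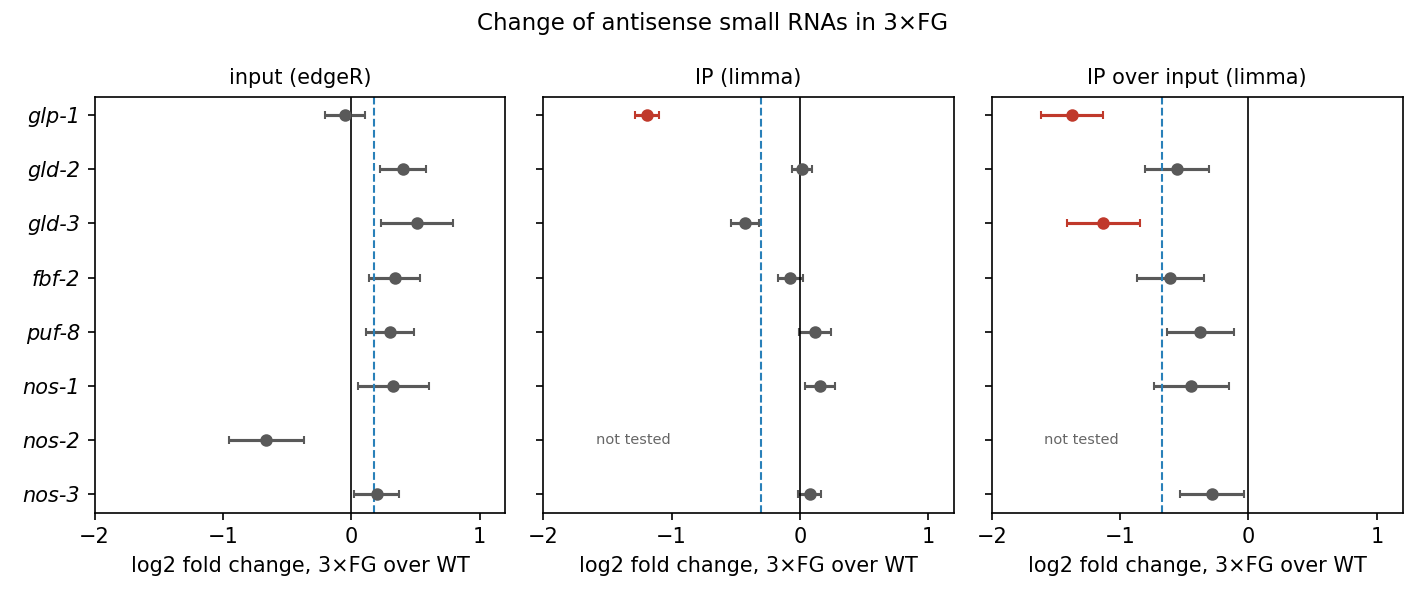
Log2 fold changes of 3×FG over WT with their standard errors for 8 members in the inputs (edgeR), in the WAGO-4 IPs and in IP over input (limma on RPM). Called members are red, and the dashed line is the median of all features tested in that comparison (0.18, -0.30 and -0.67). Only glp-1 is called in the IPs, and glp-1 and gld-3 are called in IP over input.

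Other genes of GLP-1/Notch signalling were read from a list of 16, of which 15 could be tested in the inputs. None was called higher and 2 were called lower by edgeR, beside 2.04% of all features called lower. DESeq2 called 4 of the 15, beside 2435 of the 22301 features tested. The ligand gene lag-2, expressed by the somatic distal tip cell, had 4.02, 3.21 and 3.62 RPM in 3×FG, against 11.3, 22.7 and 15.5 RPM in WT, without overlap (log2 fold change -2.41, SE 0.35, edgeR adjusted p = 0.0088). aph-1 encodes a gamma-secretase subunit that helps to release the Notch intracellular domain. It had 2.68, 2.44 and 2.86 RPM in 3×FG, against 14.5, 10.6 and 9.60 RPM in WT, also without overlap (-2.32, SE 0.31, edgeR adjusted p = 0.0066). Every 3×FG input lay below every WT input in 12.9% of all features tested. Both calls were lost when any 1 library other than WT input 3 was left out, with adjusted p of 0.010 to 0.071 for lag-2 and of 0.017 to 0.057 for aph-1, while the changes stayed between -2.49 and -2.02. With batch as a term both were kept, at -2.20 for lag-2 (edgeR adjusted p = 0.0009) and -1.96 for aph-1 (edgeR adjusted p = 0.0011). With batch B inputs only, the changes were -2.19 and -1.95. Each call was kept in 6 of 13 alternatives. In the same inputs, some other somatic transcripts that were not called also had negative changes. These were -2.13 for unc-119, -1.81 for unc-54, -1.11 for rab-3 and -1.64 for the neuronal miR-124-3p (edgeR adjusted p = 0.22). The yolk genes vit-2, vit-5 and vit-6 went the other way, with 0.36, 0.52 and 0.73. The part of these transcripts in the lag-2 difference was not tested. The median of the Notch list was -0.25, beside 0.18 over all features.

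In the IPs, 10 of the 16 Notch genes stood in both tables, and 3 were called lower and none higher, beside 19.7% of all features called lower. They are named because they were called. sel-10, whose product is an F-box protein that dampens Notch signalling, had 38.2, 45.6 and 44.7 RPM in 3×FG, against 157, 161 and 129 RPM in WT (-1.77, SE 0.12, limma adjusted p = 3.8e-06). The other two were aph-1 with -1.81 (SE 0.22, limma adjusted p = 0.00012) and the presenilin gene hop-1 with -1.44 (SE 0.13, limma adjusted p = 1.6e-05). In IP over input, where 24.1% of all features were called lower, only sel-10 of these 10 was called (-1.17, SE 0.27, limma adjusted p = 0.00099, and -0.47 with TMM scaling), and aph-1 had 0.00 (SE 0.31, limma adjusted p = 0.99). The transcription factor gene lag-1 and the GLP-1 target genes sygl-1 and lst-1 were not called in any comparison. However, lst-1 had the highest IP change of the list, 0.72 (SE 0.12, limma adjusted p = 0.001), short of the fold limit on the RPM scale. In IP over input it had 0.07 (SE 0.28, limma adjusted p = 0.84). Its change with TMM scaling, which moved the median of all features up, was not examined.

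Of 22 partners and targets of the FBF, GLD and NOS proteins, all were tested in the inputs and none was called by edgeR or DESeq2 (6 at an unadjusted edgeR p under 0.05), with a median of 0.18. In the IPs 17 were in both tables, and 3 were called lower and none higher, beside 19.7% of all features called lower, again named for being called. fem-3, a sex-determination gene repressed by FBF to end sperm formation, had 127.0, 125.6 and 136.2 RPM in 3×FG, against 449, 517 and 493 RPM in WT (-1.90, SE 0.09, limma adjusted p = 8.8e-07). cye-1, the cyclin E gene that GLD-1 represses, had 106, 77.5 and 102 RPM in 3×FG, against 293, 336 and 309 RPM in WT (-1.71, SE 0.13, limma adjusted p = 6.7e-06). fog-1, a CPEB-family gene for the sperm fate, had 9.08, 12.9 and 13.1 RPM in 3×FG, against 33.0, 35.1 and 32.6 RPM in WT (-1.46, SE 0.15, limma adjusted p = 4.1e-05). In each of these 3, every 3×FG IP lay below every WT IP, which was so for 51.7% of all features.

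These 3 were also the ones called in IP over input, where 24.1% of all features were called lower, at -1.54 for fem-3 (SE 0.24, limma adjusted p = 1.6e-05), -1.39 for cye-1 (SE 0.28, limma adjusted p = 0.00029) and -1.12 for fog-1 (SE 0.33, limma adjusted p = 0.0076). With TMM scaling they were -0.88, -0.73 and -0.39, short of the fold limit. The call of fog-1 was also lost without 3×FG pair 1, 3×FG pair 3 or WT pair 1 (limma adjusted p = 0.025, 0.057 and 0.019). The fem-3 ratio was 5.63, 5.44 and 4.52 in 3×FG, against 14.8, 14.9 and 15.1 in WT. Its inputs held 31.4, 30.4 and 38.6 RPM in 3×FG, against 37.1, 39.4 and 40.4 RPM in WT, which overlapped (-0.43, SE 0.16, edgeR adjusted p = 0.14). The list had a median of -0.03 in the IPs and -0.34 in IP over input, beside -0.30 and -0.67 over all features. Its highest IP change was that of atx-2, 0.80 (SE 0.09, limma adjusted p = 5.3e-05), short of the fold limit on the RPM scale. In IP over input atx-2 had -0.32 (SE 0.26, limma adjusted p = 0.28). Its change with TMM scaling was not examined.

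Among 9 other PUF genes, puf-4 and puf-10 had no antisense protein-coding row, and none of the 7 tested in the inputs was called by edgeR or DESeq2 (4 at an unadjusted edgeR p under 0.05). None of the 4 in both tables was called in the IPs (limma, 3 at an unadjusted p under 0.05), and 2 were called lower in IP over input, beside 24.1% of all features. puf-12 had ratios of 3.63, 4.07 and 2.73 in 3×FG, against 15.5, 10.3 and 6.31 in WT (-1.52, SE 0.30, limma adjusted p = 0.00020, and -0.89 with TMM scaling). puf-11, an oocyte PUF gene, had -1.02 (SE 0.31, limma adjusted p = 0.0087), a call lost without any pair other than 3×FG pair 2 and WT pair 3 and with WT input 3 as the only WT input (-0.59, limma adjusted p = 0.16) or with TMM scaling (-0.40, limma adjusted p = 0.17).

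The 7 mog genes, whose products are largely RNA splicing factors needed for the switch from sperm to oocytes, were all targets in both genotypes. None was called in the inputs by edgeR or DESeq2 or in the IPs by limma (1 and 6 at an unadjusted p under 0.05 by edgeR and limma), and 1, mog-3, was called lower in IP over input, beside 24.1% of all features (-1.50, SE 0.31, limma adjusted p = 0.00033, and -0.88 with TMM scaling). Its IP/input ratio was 3.11, 3.49 and 2.12 in 3×FG, against 13.0, 7.30 and 6.14 in WT. Every 3×FG pair lay below every WT pair, as in 57.3% of all features. The median of the 7 was -0.97 in IP over input, beside -0.67 over all features.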

How the data were processed

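sRNAs of whole worms were sequenced from 3 IPs and 3 inputs per genotype. The authors trimmed reads with cutadapt 1.15 and aligned them with STAR 2.6.0c, per the processing notes, which name ce10 and ce11 without a role. Raw read counts by feature and strand were deposited by the authors for the inputs. Reads on no feature, 4.58% to 6.14% of a library, were part of the totals behind the input RPM of all sRNA classes. They entered neither the library sizes of the tests nor the tests themselves. For each genotype the authors deposited RPM of 22G-RNAs on its targets, raised by 0.01, and an IP/input ratio, which was recomputed here. The RPM include fractions of reads, so whole reads were not recovered.

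Inputs were tested over all named rows past filterByExpr with edgeR 4.0.16 (quasi-likelihood, TMM). SEs of the inputs were taken from the test's F. IPs and IP over input were tested over the 4080 shared features with limma 3.58.1 (trend) on log2(RPM + 1). Changes of low values are understated on this scale. The interaction had no term for the lysate. IP and input were paired by the library names in the labels. Deviations within such pairs correlated at 0.12, 0.05 and 0.02 in 3×FG and 0.01, 0.07 and 0.07 in WT, and the lysate as a block changed no call of a member. On simulated data with 200 features changed by 2 on the log2 scale, 200 were recovered in each test. False calls were 1 among 21304 input features, 0 among 4080 IP features and 5 among 4080 in IP over input. The simulation had a fixed spread for all features, no batch, no general shift and no outlying library. Its changes were placed on features of higher level only. It checks the code and cannot show how reliable the calls are on the real libraries.

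Named genes were all members and, of each list, at most 3 called per direction in the inputs, plus glh-1, glh-2 and glh-4. List genes called in the IPs or in IP over input, and some not called, such as lst-1 and atx-2, were named after their values were seen. Members and lists were chosen with earlier results of these data known. 3 listed genes were matched by another name (let-711, cyn-4 and F43G9.12 for ntl-1, mog-6 and mog-7). The files hold no coordinates, and positions are from Ensembl release 115 (WBcel235). The GFP tag had 1.46, 2.01 and 2.10 antisense RPM in the 3×FG inputs, against 1.36, 1.15 and 2.20 RPM in the WT inputs. miR-1-3p of muscle had 45717 to 61612 RPM in 3×FG and 37887 to 94934 RPM in WT, and miR-124-3p of neurons 0.421 to 0.698 RPM in 3×FG and 0.450 to 2.50 RPM in WT. R 4.3.3, DESeq2 1.42.0 and Python 3.11.15 were used.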

Additional observations from a re-analysis of the deposited data

Results flagged for a closer look

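The change of IP over input differed between 3×FG and WT for 2 members, by the interaction over 12 libraries with limma: glp-1, with -1.38, and gld-3, with -1.13. The IP/input ratio of glp-1 averaged 4.08 ± 0.33 in 3×FG and 10.8 ± 2.28 in WT, and that of gld-3 6.36 ± 1.61 in 3×FG and 14.7 ± 5.77 in WT (SD, n = 3 each). Over all 4080 features, 24.1% were called lower in the same way.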

How the results depend on the processing

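No member was called in the inputs under any of 13 alternatives, whereas glp-1 was called in 10 of 11 alternatives in the IPs and in 10 of 12 in IP over input, and gld-3 in 7 of 12 in IP over input. Of 265 values of members under alternatives, 238 kept direction and side of the call limits, 8 lost a call and 19 changed sign. TMM scaling turned gld-2 to 0.071, fbf-2 to 0.029, nos-1 to 0.13, nos-3 to 0.34 and puf-8 to 0.26 in IP over input, with or without the lysate block (an alternative chosen after seeing the data), and fbf-2 to 0.23 in the IPs. The glp-1 input change was 0.15 with library size scaling, 0.23 without a filter on low counts, and -0.049 to 0.088 with 1 library left out. With 1 IP left out, gld-2 ran from -0.0024 to 0.039 and puf-8 from -0.029 to 0.21. The 641 features called in the inputs became 2435 with DESeq2, 2067 with antisense protein-coding rows only, 1511 with batch as a term, 1668 with batch B inputs only and 9 to 7038 with 1 library left out, the most without WT input 3 (7038) and the fewest without 3×FG input 3 (9). The 993 called in IP over input became 169 with TMM scaling, 144 with TMM scaling and the lysate block, and 547 to 1423 with 1 pair left out. The 828 called in the IPs ran from 787 to 893 with 1 library left out. The cause of these changes was not tested.

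With the replicate number as a block, 0 features were called in the inputs and 834 in the IPs, and with the lysate as a block 1032 in IP over input. Across genotypes the numbers name samples only, and the block does not follow the R codes in the library names, whose meaning is not given in the sources used here. WT pair 3 and 3×FG pair 1 share a code and the other pairs each have their own, so in the inputs and the IPs code and genotype can be told apart only through these pairs, and a fit with the code as a term would leave no residual degrees of freedom. Deviations of same-numbered inputs correlated at -0.31, -0.02 and -0.26, and those of same-numbered IPs at -0.15, 0.31 and 0.20.

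Depth limits WT input 1 most, where 22 reads lie behind gld-3, 15 behind nos-2 and 14 behind nos-1. WT input 3 was the only WT input of batch B, so that batch and genotype can be told apart only through this library. The IP tests cover features that passed the target rule in both genotypes.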

Other observations

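Some listed genes stood in the target table of 1 genotype only. In WT only, they were cpb-1, dlc-1 and tra-2 among the partners and targets of FBF, GLD and NOS proteins and puf-5 and puf-7 among the other PUF genes. tra-2, whose mRNA GLD-1 represses, had 184 ± 20.5 RPM in the WT IPs, and puf-5, which acts in oocytes, had 264 ± 59.7 RPM (SD, n = 3 each). In 3×FG only, epn-1, an epsin gene that promotes Notch signalling, had 32.7 ± 4.86 RPM in the IPs (SD, n = 3) and IP/input ratios of 2.71, 2.61 and 2.68. IP values of these genes in the other genotype were not analysed here.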
